A study of Homo sapiens with 13 samples.

Results

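The replication-dependent histone genes are the protein-coding genes whose symbols begin with HIST1H, HIST2H, HIST3H or HIST4H, and 71 of the 58581 genes in the RNA-seq count table met that rule. They comprise 6 genes for the linker histone H1, 17 for H2A, 18 for H2B, 15 for H3 and 15 for H4. In the coordinates of the count table, 55 of them lie on chromosome 6, all between bases 25726132 and 27893843. A further 15 lie on chromosome 1, and HIST4H4 alone lies on chromosome 12.

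These genes supply the core and linker histones that package newly copied DNA, and their expression is tied to S phase. Their mRNAs are the main class of animal mRNA without a poly(A) tail: transcripts end in a short stem-loop that is bound by SLBP and cut with the help of the U7 small nuclear ribonucleoprotein. Most have no intron, so that their mRNA is made without splicing. SRSF2 is a splicing factor that binds short RNA motifs written CCNG and GGNG, and the P95H substitution found in myelodysplasia is known to favour CCNG over GGNG.

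All samples were HEL cells, a human erythroleukemia line, carrying a stable SRSF2 construct. RNA was sequenced after rRNA depletion, which does not select for a poly(A) tail, in 2 libraries expressing SRSF2 P95H and 2 expressing wild-type SRSF2 (WT), each given 1 µg/ml doxycycline for 48 hours. One more library (n = 1) came from P95H cells labelled uninduced. SRSF2 binding was measured by HITS-CLIP, sequencing of RNA crosslinked to the protein and recovered with an antibody to its Flag tag, in 4 P95H and 4 WT samples after 36 hours of doxycycline at the same dose. The cells also have their own SRSF2 gene, and the labels name neither the promoter of the construct nor how many clones each stable line represents. Replicates are labelled as biological, but nothing says that they came from separate cultures, so p-values measure only the spread between these libraries.

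Total counts per library ranged from 37414093 to 45005605, where 3 counts correspond to 0.0667 to 0.0802 CPM (counts scaled to a common library total). The SRSF2 gene itself, to which the construct may add reads, stood at 223 and 252 CPM in P95H, 222 and 241 CPM in WT and 285 CPM in the library labelled uninduced, with P95H and WT overlapping and the library labelled uninduced highest. The erythroid and megakaryocyte markers GATA1, TAL1, ITGA2B, KLF1, HBG1 and HBG2 were all detected, from 3.90 CPM for HBG1 to 808 CPM for ITGA2B. Markers of T cells stayed at or below 0.0450 CPM, those of B cells at or below 0.428 CPM and those of fibroblasts at or below 0.570 CPM. EPCAM was at 0, whereas the keratin genes KRT8 and KRT18 reached 7.93 and 32.9 CPM. Mitochondrially encoded genes took 1.38% and 4.30% of counts in P95H, 1.38% and 4.50% in WT and 4.14% in the library labelled uninduced, so this share followed the replicate number and not the genotype.

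The promoters of these genes differ by class in the short motifs they hold, and 1 promoter per class is shown to give the sequence context of an abundant member. The 150 bases before the start of each gene are given 5′ to 3′ on the gene's own strand, from RefSeq (GRCh38.p14). Capitals mark matches to CCAAT, to the TATA letters TATAAA, to the octamer ATTTGCAT and to the H4 motif GGTCCG on either strand, and ATTGG is the first of these read on the other strand. HIST1H1B is at chr6:27867589-27867738 (minus strand), HIST1H2AG at chr6:27132893-27133042 (plus), HIST1H2BK at chr6:27146856-27147005 (minus), HIST1H3H at chr6:27809901-27810050 (plus) and HIST1H4B at chr6:26027284-26027433 (minus). For H3 and H4 the most abundant gene with a RefSeq promoter entry is shown, which ranks 4 in H3 and 2 in H4 by mean CPM.
HIST1H1B: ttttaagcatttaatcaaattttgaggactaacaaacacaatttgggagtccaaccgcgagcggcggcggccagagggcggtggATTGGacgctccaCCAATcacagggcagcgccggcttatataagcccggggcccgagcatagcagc
HIST1H2AG: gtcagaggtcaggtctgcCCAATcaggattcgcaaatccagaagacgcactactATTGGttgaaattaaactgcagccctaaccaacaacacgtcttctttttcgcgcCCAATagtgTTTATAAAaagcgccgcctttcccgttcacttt
HIST1H2BK: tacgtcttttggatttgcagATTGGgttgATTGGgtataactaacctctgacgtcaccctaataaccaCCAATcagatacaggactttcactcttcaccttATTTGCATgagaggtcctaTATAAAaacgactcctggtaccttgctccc
HIST1H3H: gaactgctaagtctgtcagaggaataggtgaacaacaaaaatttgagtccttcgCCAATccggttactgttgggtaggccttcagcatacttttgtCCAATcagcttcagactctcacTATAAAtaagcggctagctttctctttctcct
HIST1H4B: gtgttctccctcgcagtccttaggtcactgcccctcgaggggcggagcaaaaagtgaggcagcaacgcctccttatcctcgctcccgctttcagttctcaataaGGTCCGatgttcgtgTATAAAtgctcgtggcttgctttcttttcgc

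A promoter entry was found for 61 of the 71 genes, and the motifs were counted on both strands of the 250 bases before the start. TATAAA, the core of a TATA box, was in 40 of the 61 (65.6%), against 10.8% of 34943 promoters of the same length. CCAAT was in 51 of 61 (83.6%), against 32.0% of all promoters: it was in every one of the 6 H1, 14 H2A, 18 H2B and 10 H3 promoters, but in 3 of 13 for H4. The octamer ATTTGCAT, the letters recognised by OCT1, was in 11 of 14 H2A and 14 of 18 H2B promoters and in 0 of those for H1, H3 and H4, against 1.63% of all promoters. GGTCCG, part of the site read by HINFP at H4 genes, was in 12 of 13 H4 promoters and in 15 of 61 over all classes, against 9.4% of all promoters. In HIST1H2AG, TATAAA on the plus strand overlaps the same letters on the minus strand, so that 1 stretch holds both. A match is a stretch of letters, and binding at these promoters was not measured.

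HIST1H1B, which encodes linker histone H1.5, had the highest level of all members, with 912 and 924 CPM in P95H, 1038 and 869 CPM in WT and 781 CPM in the library labelled uninduced. HIST1H1C, for H1.2, had 632 and 585 CPM in P95H, 731 and 532 CPM in WT and 524 CPM in the library labelled uninduced. HIST1H1E, for H1.4, had 362 and 399 CPM in P95H, 410 and 369 CPM in WT and 298 CPM in the library labelled uninduced. In HIST1H1B and HIST1H1C both P95H values lay within the range of the WT values, and in HIST1H1E 1 of them lay just below it. In all 3 genes the library labelled uninduced was the lowest of the 5.

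Among the core histone genes of the octamer-bearing classes, HIST1H2AG led H2A with 301 and 283 CPM in P95H, 350 and 286 CPM in WT and 283 CPM in the library labelled uninduced. HIST1H2AB had 97.6 and 86.5 CPM in P95H, 101 and 94.1 CPM in WT and 88.2 CPM in the library labelled uninduced. HIST1H2AE had 53.5 and 45.6 CPM in P95H, 61.8 and 43.4 CPM in WT and 38.6 CPM in the library labelled uninduced. In each of these H2A genes WT replicate 1 was the highest library. HIST1H2BK led H2B with 358 and 321 CPM in P95H, 399.7 and 303 CPM in WT and 303 CPM in the library labelled uninduced. HIST2H2BE had 320.3 and 280.4 CPM in P95H, 326 and 272 CPM in WT and 269.97 CPM in the library labelled uninduced. HIST2H2BF had 294 and 224 CPM in P95H, 260.2 and 243 CPM in WT and 223 CPM in the library labelled uninduced. For these H2B genes the P95H and WT values overlapped, and HIST2H2BF differed more between the P95H replicates than between genotypes.

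HIST1H3B led H3 with 354 and 340.4 CPM in P95H, 430 and 354 CPM in WT and 313 CPM in the library labelled uninduced. HIST1H3I had 174 and 162 CPM in P95H, 203 and 161 CPM in WT and 164 CPM in the library labelled uninduced. HIST1H3C had 154 and 152 CPM in P95H, 188 and 147 CPM in WT and 152 CPM in the library labelled uninduced. For H3 the groups overlapped, and WT replicate 1 stood above the other 4 libraries. HIST1H4C led H4 with 226 and 198 CPM in P95H, 243 and 199 CPM in WT and 167 CPM in the library labelled uninduced. HIST1H4B had 188 and 183 CPM in P95H, 236 and 197 CPM in WT and 152 CPM in the library labelled uninduced. HIST1H4E had 178 and 182 CPM in P95H, 209 and 197 CPM in WT and 149.6 CPM in the library labelled uninduced. In HIST1H4B and HIST1H4E both P95H libraries were below both WT libraries, and in all 3 H4 genes the library labelled uninduced was the lowest.

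**Figure D1:**
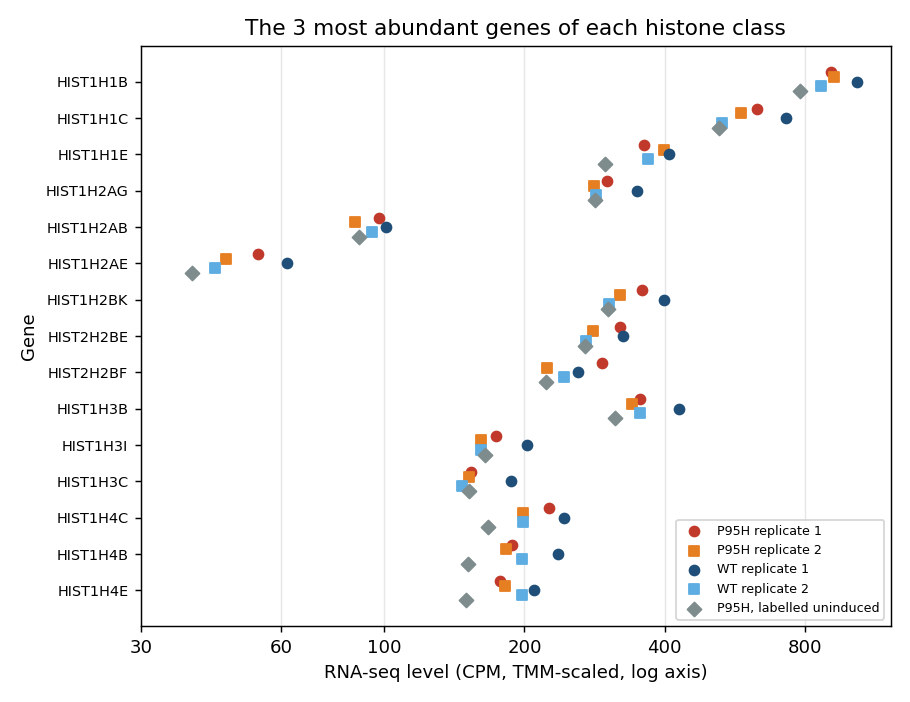
RNA-seq level in CPM (log axis) of the 3 most abundant genes of each histone class, with 1 point per library. P95H and WT points overlap in most genes, WT replicate 1 is often the highest, and the library labelled uninduced is the lowest for the H4 genes shown.

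The 15 genes named above held 60.9% of the summed CPM of the 71. At the other end, 13 genes had fewer than 20 counts in every library, and HIST1H2AK, HIST1H4F and HIST2H3PS2 had 0 in all of them. These 13 include HIST1H1T, HIST1H2AA and HIST1H2BA, which are known from testis. Of the 71, 62 passed the filter on low counts, and all 9 that did not were below 20 counts. CPM are not divided by length. Of the genes, 52 span at most 1000 bases, and 44 of these spans are multiples of 3, so the span of these genes is mostly coding length. Per kilobase of that span, mean RNA was 1328 CPM for HIST1H1B, 936 CPM for HIST1H1C, 884 CPM for HIST1H2BK, 872 CPM for HIST1H3B, 587 CPM for HIST1H4E and 557 CPM for HIST1H1E. HIST1H1B, HIST1H1C and HIST1H1E stay high by length as well, alongside the H2B and H3 leaders.

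Some counts are uncertain between genes. HIST2H4A and HIST2H4B, HIST2H3A and HIST2H3C, and HIST2H2AA3 and HIST2H2AA4 are near-identical copies, and how reads that match both copies were counted is not stated. Of the 71 genes, 14 overlap another gene on the same strand and 30 on either strand.

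Whether histone RNA differed with the mutant was asked first by class. Summed over the 71 genes, RNA was 7611 and 7158 CPM in P95H, 8441 and 7035 CPM in WT and 6436 CPM in the library labelled uninduced. The P95H mean was 7384 ± 321 CPM and the WT mean 7738 ± 994 CPM (SD, n = 2 each), a log2 difference of -0.07, and both P95H libraries lay between the WT libraries. An exact permutation test, two-sided, gave p = 1, and the smallest p that 2 against 2 libraries allow is 0.333. In bulk RNA, fewer cells in S phase and less histone RNA per cell cannot be told apart.

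H1 genes summed to 2047 and 2108 CPM in P95H, 2344 and 1953 CPM in WT and 1725 CPM in the library labelled uninduced, a log2 difference of P95H over WT of -0.05. H2A genes summed to 649 and 592 CPM in P95H, 766 and 593 CPM in WT and 587 CPM in the library labelled uninduced, a difference of -0.13. H2B genes summed to 2553 and 2215 CPM in P95H, 2569 and 2210 CPM in WT and 2080 CPM in the library labelled uninduced, a difference of -0.003. The H1 and H2B sums of P95H lay inside the WT range, and those of H2A reached just below it. H3 genes summed to 1167 and 1104 CPM in P95H, 1400 and 1123 CPM in WT and 1077 CPM in the library labelled uninduced, a difference of -0.15. H4 genes summed to 1196 and 1138 CPM in P95H, 1361 and 1157 CPM in WT and 967 CPM in the library labelled uninduced, a difference of -0.11. In H3 and H4 the groups also overlapped, with 1 P95H library between the WT libraries, and the smallest exact permutation p of any class was 0.667.

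**Figure D2:**
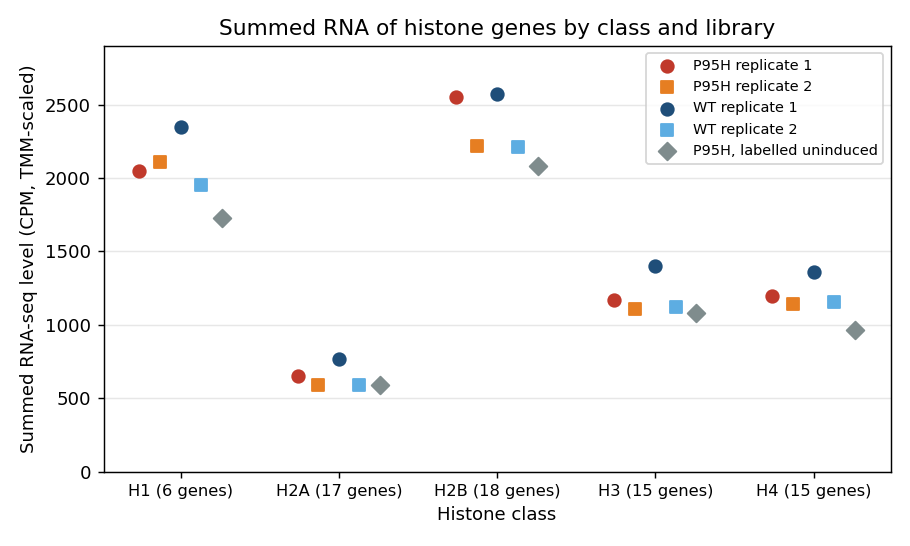
Summed RNA-seq level (CPM, from 0) of the genes of each histone class, with 1 point per library. P95H points lie inside or close to the range of the WT points in each class, and the library labelled uninduced has the lowest sum in all 5.

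The classes kept their proportions across libraries. H2B took 30.4% to 33.5% of histone CPM, H1 26.8% to 29.5%, H3 15.3% to 16.7%, H4 15.0% to 16.4% and H2A 8.27% to 9.12%. The difference between P95H and WT depended on the replicate number: within replicate 1 the log2 difference of the whole sum was -0.15, and within replicate 2 it was 0.02. Within replicate 1 it was -0.20 for H1, -0.24 for H2A, -0.26 for H3 and -0.19 for H4, but -0.009 for H2B. Within replicate 2 it was 0.11 for H1, -0.002 for H2A, 0.004 for H2B, -0.02 for H3 and -0.02 for H4, so the lower sums of P95H were seen mainly within replicate 1.

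Gene by gene, none of the 62 tested histone genes changed in P95H relative to WT by edgeR's quasi-likelihood test at an adjusted p under 0.05, against 0 (0%) of 22007 genes in all. At an unadjusted p under 0.05 there were 0 of the 62, against 1.03% of all genes, and DESeq2 gave 0 at both thresholds. Values of log2 change were negative in 45 and positive in 17, with a median of -0.06. Over all genes 10891 of 22007 were negative, with a median of 0.002. H3 had 12 negative of 12 (median -0.14) and H2A 13 of 14 (median -0.12), whereas H4 had 9 of 12 (median -0.03), H1 5 of 6 (median -0.03) and H2B 6 of 18 (median 0.02).

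That direction rested on WT replicate 1. It was the highest of the 5 libraries in 45 of the 62 genes, against 19.7% of all genes. Without it the median became 0.10 and 47 of 61 genes were positive. Without WT replicate 2 the median was -0.24, without P95H replicate 1 it was -0.15, and without P95H replicate 2 it was -0.01. Within replicate 1, 12 of the 62 were higher in P95H (median -0.18), and within replicate 2, 37 were (median 0.03). The members share a tie to S phase and some are near-identical copies. Counts of them, here and below, are therefore not counts of independent observations.

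Log2 changes of the class leaders in P95H against WT were small: -0.04 (SE 0.13) for HIST1H1B, -0.11 for HIST1H2AG, -0.04 for HIST1H2BK, -0.16 for HIST1H3B and -0.05 for HIST1H4C. The lowest unadjusted p-values belonged to 3 other members, named after their values were seen. HIST1H4A had 32.2 and 34.9 CPM in P95H and 48.5 and 35.5 CPM in WT, with 30.6 CPM in the library labelled uninduced, a log2 change of P95H over WT of -0.31 (SE 0.17). HIST1H4B, whose values stand above, had -0.21 (SE 0.12). HIST1H3D had 64.5 and 66.4 CPM in P95H, 77.3 and 71.6 CPM in WT and 57.8 CPM in the library labelled uninduced, a log2 change of -0.18 (SE 0.10). In all 3 genes both P95H libraries were below both WT libraries, but edgeR's adjusted p was 0.9999 for each.

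Both P95H libraries were below both WT libraries in 7 of the 62, which are HIST1H4A, HIST1H4B, HIST1H4E and HIST1H4H of H4, HIST1H2BF and HIST1H2BN of H2B, and HIST1H3D of H3. This was true of 12.2% of all genes, a share close to that of the histone genes. In 0 of the 62 were both P95H libraries above both WT libraries, against 12.1% of all genes.

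**Figure D3:**
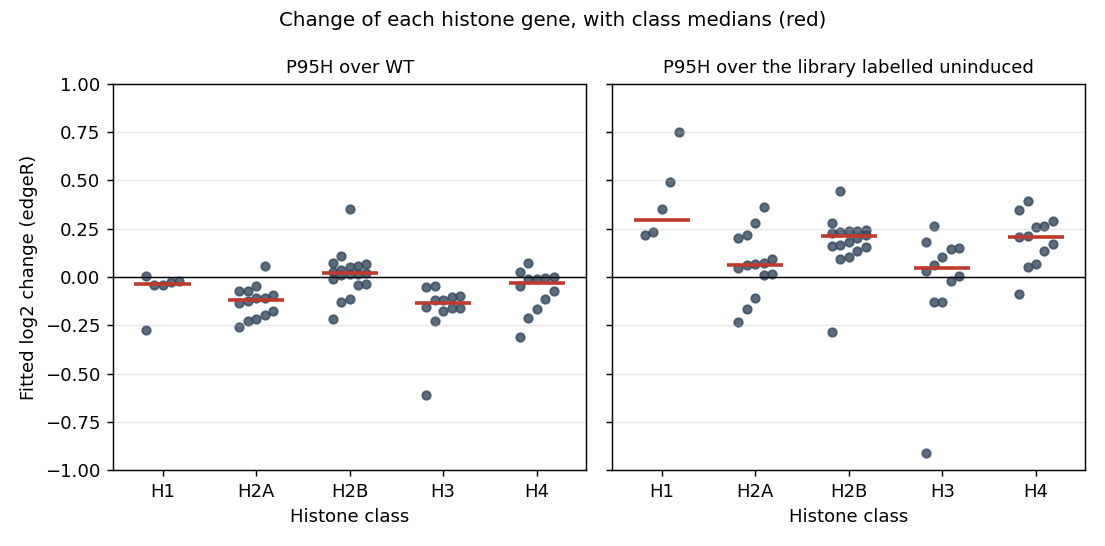
Fitted log2 change (edgeR) of each tested gene by class, for P95H over WT (left) and P95H over the library labelled uninduced (right), with class medians as red lines. On the left the H3 and H2A medians are -0.14 and -0.12 and that of H2B is 0.02; on the right all class medians are positive, and 2 genes outside the range from -1 to 1 are not drawn.

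The library labelled uninduced asked whether histone RNA differed from that of P95H cells given doxycycline. It had the lowest sum in each class, and each of the 4 doxycycline libraries was 1.09 to 1.31 times its level over all members. That range was 1.18 to 1.41 for H4, 1.13 to 1.36 for H1, 1.06 to 1.24 for H2B, 1.02 to 1.30 for H3 and 1.01 to 1.30 for H2A. The log2 difference of P95H over it was 0.27 for H1, 0.08 for H2A, 0.20 for H2B, 0.08 for H3 and 0.27 for H4. With 1 library in that group, its own spread is unknown.

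None of the 62 genes passed edgeR's test at an adjusted p under 0.05, against 0 (0%) of 23970 genes. Unadjusted p was under 0.05 for 3 of the 62, against 3.41% of all genes, and DESeq2 also called 0 of the 62, with 3 under 0.05 unadjusted. Log2 change was positive in 52 and negative in 10 (median 0.16), while over all genes 50.2% were positive (median 0.002). The median was 0.29 in H1, 0.21 in H2B, 0.21 in H4, 0.06 in H2A and 0.05 in H3. Without P95H replicate 1, the median over the 62 was 0.10 and 46 were positive.

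The 3 members with the lowest p-values, named after their values were seen, come from different classes. HIST1H2BD had 155 and 139 CPM in P95H, 152 and 133 CPM in WT and 108 CPM in the library labelled uninduced, a log2 change of P95H over the library labelled uninduced of 0.45 (SE 0.15). HIST1H4I had 121 and 117 CPM in P95H, 129 and 112 CPM in WT and 90.8 CPM in the library labelled uninduced, a log2 change of 0.39 (SE 0.14). HIST1H1E, given above, had 0.35 (SE 0.15). For each, the 4 doxycycline libraries lay above the library labelled uninduced. None of the 3 passed edgeR's test at an adjusted p under 0.05. That outcome changed when the replicate number was fitted as a block, as given under the processing below. Among the class leaders the same log2 change was 0.23 for HIST1H1B, 0.04 for HIST1H2AG, 0.17 for HIST1H2BK, 0.15 for HIST1H3B and 0.35 for HIST1H4C.

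Below all 4 doxycycline libraries, the library labelled uninduced was the lowest in 33 of the 62 genes, against 21.4% of all genes. These were 5 of 6 in H1, 12 of 18 in H2B, 8 of 12 in H4, 5 of 12 in H3 and 3 of 14 in H2A. It was the highest in 1, HIST1H1A, against 25.9% of all genes, and HIST1H1A had at most 26 counts in any library. WT cells given doxycycline shared the direction: 60 of 62 genes were higher in WT replicate 1 (median log2 0.36) and 40 in WT replicate 2 (0.06), against the library labelled uninduced. For P95H, 54 were higher in replicate 1 (0.21) and 43 in replicate 2 (0.08). Of all genes, 45.4% (WT replicate 2) to 49.8% (P95H replicate 1) were higher in the same 4 libraries, with medians between -0.03 and -0.002. All 4 of these comparisons share the single library labelled uninduced.

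Genes that serve the histone genes were examined next, and none of their lists held a called gene in either comparison. Of 37 tested factors for histone gene transcription and 3′ end processing, 24 had a negative log2 change in P95H against WT (median -0.04) and 23 a positive one against the library labelled uninduced (median 0.07). SLBP, the stem-loop binding protein, had 163 and 159 CPM in P95H, 173 and 169 CPM in WT and 148 CPM in the library labelled uninduced. SRSF3, a splicing factor that also assists export of histone mRNA, had 477 and 515 CPM in P95H, 509 and 535 CPM in WT and 452 CPM in the library labelled uninduced. SLBP was thus lower in both P95H libraries than in both WT libraries, by a log2 change of -0.07, within the error of the test.

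Of 24 tested histone chaperones, 19 had a negative log2 change in P95H against WT (median -0.04) and 15 a positive one against the library labelled uninduced (median 0.07). NPM1, a nucleolar chaperone, had 2811 and 2549 CPM in P95H, 2878 and 2499 CPM in WT and 2126 CPM in the library labelled uninduced, with P95H and WT overlapping. Most replication-independent histone genes make mRNAs with a poly(A) tail. Of 11 tested, 7 had a negative log2 change in P95H against WT (median -0.04). Against the library labelled uninduced, 9 had a positive log2 change (median 0.21). H2AFY, for macroH2A, had 702 and 701 CPM in P95H, 792 and 631 CPM in WT and 706 CPM in the library labelled uninduced, and did not separate the groups.

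Among 30 S phase genes, 27 had a negative log2 change in P95H against WT (median -0.09) and 21 a positive one against the library labelled uninduced (median 0.11). Their sum was 4766 and 4792 CPM in P95H, 5110 and 5045 CPM in WT and 4603 CPM in the library labelled uninduced, with both P95H libraries below both WT libraries. RRM2, a subunit of ribonucleotide reductase, had 511 and 569 CPM in P95H, 511 and 668 CPM in WT and 499 CPM in the library labelled uninduced. The S phase genes were thus ordered as the histone sum was by group mean, but not library by library. WT replicate 2 had a higher S phase sum than both P95H libraries, yet its histone sum of 7035 CPM was below both of theirs (7611 and 7158 CPM). The part of S phase content in the histone levels was not tested. The mitochondrial share, given above, was lower in the 2 libraries numbered 1, which had the higher histone sum within each genotype, and its part was not tested either.

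Binding of SRSF2 to histone RNA was available from the authors' deposited table of windows that differ between P95H and WT, with 8100 windows after repeated entries were counted once. Per that table, 22.3% of them were higher in P95H and the others lower, and every listed window has an adjusted p no higher than 0.05 and differs by 1 or more on the log2 scale. Windows in the histone genes numbered 6, in 6 genes, of which 4 are H2B genes and 2 are H4 genes, and all 6 were higher in P95H. No window was listed for the other 65 genes; binding that did not differ is not listed by the table.

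Among the histone genes, the largest change in the authors' deposited table was in HIST3H2BB (hg38 chr1:228458314-228458334, plus strand), with a mean of 2.04 ± 1.60 CPM in P95H and 0.02 ± 0.02 CPM in WT (SEM over 4 samples each), a log2 change of 5.54 and an adjusted p of 2.95e-11. In the same table HIST1H2BN (chr6:27838846-27838866, plus) had 1.81 ± 1.55 CPM in P95H and 0.02 ± 0.02 CPM in WT, a log2 change of 5.35. HIST2H2BF (chr1:149812119-149812139, minus) had 2.16 ± 1.56 CPM in P95H and 0.10 ± 0.10 CPM in WT in the authors' deposited table, a log2 change of 3.93. HIST2H2BE (chr1:149886436-149886456, minus) had 2.14 ± 1.57 CPM in P95H and 0.10 ± 0.10 CPM in WT there, a log2 change of 3.92 in the authors' deposited table. Counted from the RefSeq start, the 4 H2B windows lie 212 to 232 bases in for HIST3H2BB, 278 to 298 for HIST1H2BN, 232 to 252 for HIST2H2BF and 227 to 247 for HIST2H2BE. In all 4 H2B windows the P95H mean stood well above the WT mean but had a standard error of the same order as itself. The table assigns these windows to protein-coding transcripts of the 4 genes.

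HIST2H4A (chr1:149832679-149832699, plus) and HIST2H4B (chr1:149861117-149861137, minus) both had 0.83 ± 0.75 CPM in P95H and 0.12 ± 0.09 CPM in WT in the authors' deposited table, a log2 change of 2.25 and an adjusted p of 0.0011. The table assigns both to transcripts classed as targets of nonsense-mediated decay. Both windows lie 23 to 43 bases from the RefSeq start and give the same letters, shown here because they are the histone windows whose bases the RefSeq promoter table covers. The start codon atg begins at base 7, and capitals mark a CCNG match at base 11, with no GGNG in the window.
HIST2H4A and HIST2H4B: gcggtcatgtCCGGcagagga
The table does not say whether window starts count from 0 or 1, so the first base may lie outside the window.

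The windows are not independent of each other. The 300 bases around the starts of HIST2H4A and HIST2H4B are identical at 300 of 300 positions, so the same reads may be counted at both genes. The HIST2H2BF and HIST2H2BE values were also near equal to that of a window in HIST2H2BA, and the HIST3H2BB value to that of one in HIST3H2BA, both genes that are not protein-coding and no members; these gave 2.14 ± 1.57 CPM and 2.03 ± 1.60 CPM in P95H in the authors' deposited table. For the 6 histone windows the SEM was 0.722 to 0.904 of the P95H mean, against a median of 0.717 over all windows that were higher in P95H. An SEM that large beside the mean of 4 samples means that the P95H signal was uneven among them, so the higher P95H means need not be shared by all 4. Per sample values are not in that table, so how many of the 4 P95H samples carried the signal was not analysed here.

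**Figure D4:**
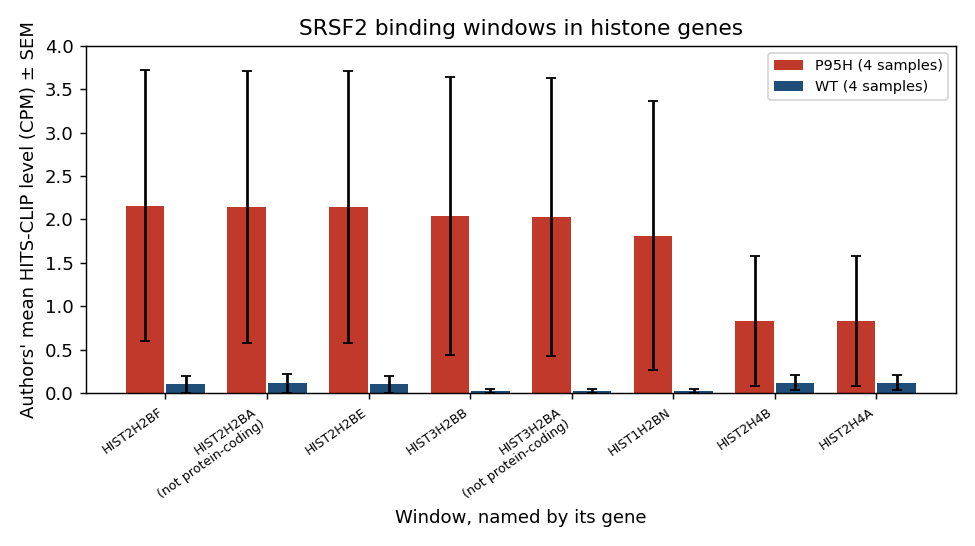
The authors' mean HITS-CLIP level (CPM, from 0) with its SEM over 4 P95H and 4 WT samples, for the 6 windows in member genes and 2 in histone genes that are not protein-coding. P95H bars reach 0.83 to 2.16 CPM with SEM close to the bar height, and WT bars stay at or below 0.12 CPM.

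The RNA levels of the genes with windows are set beside them. HIST3H2BB RNA was 89.7 and 60.3 CPM in P95H, 78.2 and 62.1 CPM in WT and 65.1 CPM in the library labelled uninduced. HIST1H2BN RNA was 93.9 and 91.9 CPM in P95H, 104 and 100.4 CPM in WT and 78.7 CPM in the library labelled uninduced. HIST2H4A RNA was 2.76 and 2.81 CPM in P95H, 3.95 and 1.39 CPM in WT and 2.48 CPM in the library labelled uninduced. HIST2H4B RNA was 4.53 and 4.48 CPM in P95H, 6.15 and 3.00 CPM in WT and 4.80 CPM in the library labelled uninduced. Of these genes, both P95H libraries were below both WT libraries in HIST1H2BN, and the groups overlapped in the others; HIST2H2BE and HIST2H2BF, given above, overlapped as well.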

How the data were processed

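The authors deposited whole-number counts for each Ensembl gene. GRCh38.p3, TopHat2 2.0.14, STAR 2.5.3a and edgeR appear in the submitters' processing notes, without roles. What counted the reads, with which annotation and whether by strand, was not given in the sources used here. HITS-CLIP values are the authors' deposited comparison of P95H with WT: a log2 change, an adjusted p-value (FDR), and mean CPM with its standard error, per the file headers. Of 8324 entries, 224 repeated a position.

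From these counts, edgeR 4.0.16 in R 4.3.3 was run with filterByExpr, TMM scaling, the quasi-likelihood test and Benjamini-Hochberg adjustment over all genes past the filter, threshold 0.05. P95H against WT used 4 libraries. P95H against the library labelled uninduced used 5, its spread coming from the replicated P95H and WT groups. CPM were computed here with TMM-scaled totals, and class levels are sums of CPM. DESeq2 1.42.0, other scalings, other filters, a replicate block and leaving out each library were alternatives. The edgeR tests were tried on simulated data that held no shift shared by libraries of the same replicate number, so the simulation does not cover such a shift. Promoters and windows were read from RefSeq tables (GRCh38.p14, whose main chromosomes share coordinates with GRCh38.p3). Members and gene lists were chosen with earlier results of these data known. Values in every library are given for the 3 members of each class with the highest mean CPM, for members with HITS-CLIP windows and for the most abundant gene of each other list; SLBP, HIST1H1D and members named beyond these were chosen after their values were seen. No set test was run.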

Additional observations from a re-analysis of the deposited data

How the results depend on the processing

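No member passed the threshold in P95H against WT under any alternative run: DESeq2's test or size factors, library totals, no filter, a stricter filter, the replicate block or leaving out any library. The replicate number of the labels is not said to mark a shared culture. Deviations from the group means of same-numbered libraries correlated at 0.535 over all genes and 0.377 over members, with only 2 pairs. With the replicate block, edgeR's test of P95H against WT called 0 members and 84 of all genes at an adjusted p under 0.05, against 0 without it. In that fit 7 members had an unadjusted p under 0.05, but the share of all genes at that threshold was not counted. With no filter, 15 of all genes were called. Against the library labelled uninduced, which has no number, the replicate block called 22 members when it was placed with replicate 1 and 4 when placed with replicate 2, with the 4 among the 22 and all positive; the median log2 change was then 0.26 and 0.057, and HIST1H2AG had -0.052 in the second placing. All genes called numbered 3685 and 866 in these placings, 92 with no filter, 8 with DESeq2 and 0 otherwise. In both placings 23970 genes were tested, 62 of them members. The 4 members called in both placings were HIST1H1D, HIST1H1E, HIST1H2BD and HIST1H4I. What moves these counts was not tested.

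Leaving out each library in turn moved the P95H against WT values. The member median ranged from -0.24 to 0.098, the H1 sum from -0.17 to 0.089, the H2A sum from -0.30 to 0.065, the H2B sum from -0.11 to 0.11, the H3 sum from -0.30 to 0.016, the H4 sum from -0.22 to 0.012 and the sum of all members from -0.19 to 0.070 (log2), each highest and above 0 without WT replicate 1. With library totals the H2B sum was 0.044, against -0.003 with TMM. HIST1H1B ranged from -0.18 to 0.088, HIST1H2AG from -0.26 to 0.040, HIST1H2BK from -0.23 to 0.17 and HIST1H4C from -0.20 to 0.10, each positive without WT replicate 1. The remaining class leader, HIST1H3B, stayed negative, from -0.31 to -0.017. Without WT replicate 1, HIST1H4A (-0.072), HIST1H4B (-0.079) and HIST1H3D (-0.12) were negative as well. The 6 histone windows stayed higher in P95H with an adjusted p of at most 0.01, with every entry counted and with neighbouring windows merged, while the share of all windows higher in P95H was 22.2% with every entry, 33.8% with overlapping windows merged and 35.1% with those within 50 bases merged. Depth limits the 13 members under 20 counts. Elsewhere the number of libraries limits precision, with 2 each for P95H and WT and 1 labelled uninduced.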

Other observations

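Within the H1 family, HIST1H1D, for H1.3, took a share of the summed H1 CPM of 6.83% and 9.43% in P95H, 7.05% and 9.31% in WT and 6.99% in the library labelled uninduced. HIST1H1C took 30.9% and 27.8% in P95H, 31.2% and 27.3% in WT and 30.4% in the library labelled uninduced. These shares were alike in libraries with the same replicate number and differed between numbers. By these H1 shares the library labelled uninduced was close to those numbered 1. By its mitochondrial share of 4.14% it was instead close to those numbered 2 (4.30% and 4.50%), so these values do not place it with either number. HIST1H1D itself had 140 and 199 CPM in P95H, 165 and 182 CPM in WT and 121 CPM in the library labelled uninduced.

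Of 56 members with a mean of at least 1 CPM, 5 differed between the libraries numbered 1 and 2 in the same direction in both genotypes by a log2 ratio over 0.25, against 23.0% of 14949 genes; both limits were chosen after values were seen. These were HIST1H2AC, HIST3H2A, HIST1H2BO, HIST3H2BB and HIST2H3C, all higher in the libraries numbered 1. HIST1H2AC, an H2A gene known to make polyadenylated transcripts as well, had 22.2 and 13.8 CPM in P95H, 25.2 and 12.2 CPM in WT and 15.6 CPM in the library labelled uninduced. HIST3H2A had 10.3 and 7.05 CPM in P95H, 12.7 and 7.76 CPM in WT and 9.70 CPM in the library labelled uninduced. What the replicate number stands for was not tested.

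A further 18 histone entries that are not protein-coding, all pseudogenes by their biotype in the count table, held between 277 and 372 counts in all per library. In the authors' deposited table of windows, the chaperone list had 6 windows higher and 98 lower in P95H, in 11 genes. The S phase list had 5 and 22 in 8 genes, and the 3′ end processing list 3 and 15 in 9 genes. The replication-independent histone genes had 1 and 0, in 1 gene. SLBP, CCNE1 and CCNE2 belong to both the S phase and the processing list, and listed windows can overlap. Over all windows of that table, 22.3% were higher in P95H.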
